A study of Mus musculus with 6 samples.

Results

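The DEAD box and DEAH box RNA helicases were examined in CD4+ T cells from the spleens of colitic mice. Members were the genes of the deposited count table whose symbol starts with Ddx or Dhx and a number, without Ddx3x, Ddx3y and pseudogenes, which gave 52 of 54532 genes listed. They were sorted by the known main role of each protein into 16 nucleolar helicases of ribosome biogenesis, 15 of splicing and small nuclear ribonucleoprotein (snRNP) assembly, 6 of mRNA decay, export and translation, 3 of RNA sensing, 2 of mitochondria, 3 of germ cells and 6 with other or unclear roles. The remaining entry, Dhx58os, is an antisense RNA named after its neighbour and encodes no helicase.

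RNA helicases of this superfamily use ATP to open short RNA duplexes or to strip proteins from RNA, and are named for the one-letter amino acid code of their ATPase motif. In the nucleolus they remodel the precursors of ribosomal RNA, and in the spliceosome each of several helicases drives a single step of the splicing cycle. Others feed mRNAs into decay or translation, and a few recognise viral RNA in the cytosol and are induced by interferon. T cells that become activated enlarge their nucleoli and make more ribosomes.

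The libraries came from wild-type C57BL/6J mice in which dextran sulfate sodium (DSS) in the drinking water had induced colitis. For 3 libraries the mice had received Akkermansia muciniphila, a bacterium that lives on intestinal mucus, every day, and for the other 3 phosphate-buffered saline (PBS). Both groups had DSS, and the labels put all 6 libraries in a single batch. The design text calls the 3 libraries of a group biological replicates, while the sources used here do not give age, sex, the dose of bacteria or how the CD4+ T cells were isolated. The free-text descriptions name CD5 and CD6 in place of CD4 for the libraries numbered 2 and 3 of both groups, while the cell type entry of all 6 names CD4.

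The libraries held 15032257 to 16677923 counts each, of which the helicase genes took 0.996% to 1.05%. The T cell markers were high in all 6 libraries, with a sum of 2667 ± 31.4 FPKM (fragments per kilobase of gene, scaled by library depth) with Akkermansia and 2487 ± 139 FPKM with PBS (SD, n = 3 each), and Cd4 at 219 FPKM with Akkermansia and 169.7 FPKM with PBS. Of these 8 markers 3 rose, Cd4 by 1.284-fold, Lck by 1.253-fold and Cd3e by 1.178-fold (edgeR adjusted p = 0.00428, 0.00606 and 0.0329). Markers of other cells moved with the treatment as well, and 12 of 12 B cell markers rose. Their sums were 575, 631 and 611 FPKM with Akkermansia against 435, 430 and 416 FPKM with PBS. Ighm held most of these sums, with means of 416.5 FPKM with Akkermansia and 348 FPKM with PBS, and rose by 1.188-fold. The median log2 fold change of the 12 was 1.19, with a range of 0.25 to 1.79. Both CD8 T cell markers, 3 of 5 NK cell markers and 4 of 10 myeloid markers rose as well, and of 8 erythroid and platelet markers Hba-a2 fell. Hba-a1, Hbb-bs and Hbb-bt, at 0.512, 0.419 and 0.411 of their PBS level, did not pass, though their groups lay apart. The 8 markers summed to 459, 269 and 449 FPKM with Akkermansia and 528, 789 and 1216 FPKM with PBS. The part of these cells in the values below was not tested, and in such bulk samples fewer cells of a type cannot be told apart from less of an RNA per cell.

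By level, the family was dominated by splicing helicases. Ddx5, a cofactor of transcription and splicing, had 665 ± 23.7 FPKM with Akkermansia and 707 ± 36.5 FPKM with PBS (SD, n = 3 each), which was 37.8% and 39.4% of the FPKM of all 52 genes together. Ddx39b, Ddx6, Ddx17 and Ddx21 followed with means of 129, 82.7, 81.0 and 56.6 FPKM with Akkermansia and 103, 77.4, 74.4 and 59.6 FPKM with PBS. At the low end, the germ cell helicase genes Ddx4 and Ddx25 had 1 to 4 and 1 to 8 counts per library and did not reach the count minimum, so 50 of the 52 genes were tested. The summed level of the 52 genes was 1712, 1751 and 1815 FPKM with Akkermansia and 1771, 1781 and 1824 FPKM with PBS, and the groups overlapped.

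With Akkermansia, 3 of the 50 tested helicase genes rose and 6 fell. Dhx37, Ddx39b and Dhx16 rose by 1.31-fold, 1.24-fold and 1.204-fold, and Dhx40, Ddx59, Ddx52, Dhx36, Dhx9 and Ddx50 fell to 0.576, 0.710, 0.806, 0.818, 0.827 and 0.836 of their PBS level. The calls amount to 18% of the tested members, beside 15.6% of all 15138 genes tested by the edgeR quasi-likelihood test at an adjusted p of 0.05. By direction, 6% of members were higher and 12% lower, beside 7.32% and 8.28% of all genes. The groups did not overlap in 18 members (36.0%), beside 34.9% of all genes, and the median log2 fold change was -0.0089 for members and -0.0081 for all genes. The family as a whole was thus called about as often as other genes were. The helicase calls numbered 2 higher without Akkermansia 1 or PBS 1 and 1 higher without Akkermansia 2 or 3. Lower calls numbered 1, 1, 2 and 3 without Akkermansia 1, Akkermansia 2, Akkermansia 3 and PBS 1. Calls over all genes, 1108 higher and 1253 lower with all 6 libraries, fell in the same fits as well. They were fewest without Akkermansia 2, with 519 higher and 623 lower, so the loss of calls was not particular to the helicases.

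**Figure D1:**
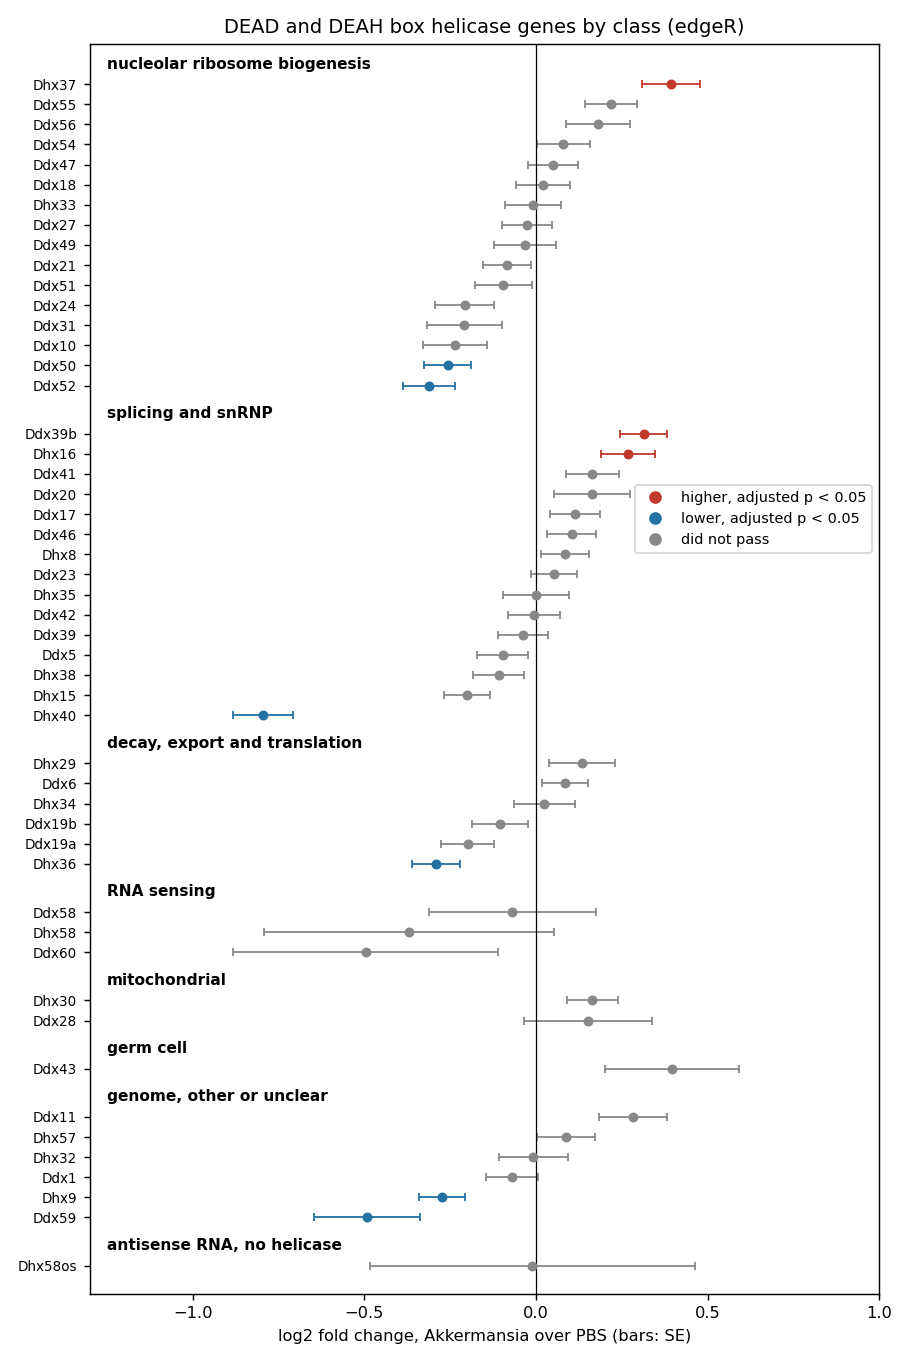
Log2 fold change of each of the 50 tested genes (x axis, Akkermansia over PBS, edgeR) with its standard error, grouped by role, with red for higher, blue for lower and grey for genes that did not pass. Dhx40 at -0.80 lies apart from the other members, and in the nucleolar and splicing classes members lie on both sides of 0.

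Among splicing and snRNP helicases, Ddx39b and Dhx16 rose and Dhx40 fell, while 12 of 15 did not pass. Dhx40 was placed in this class on limited knowledge of its role, and without it, a choice made after seeing the data, 2 of 14 members were called (14.3%), with 0 lower and a range of -0.20 to 0.31. Dhx40, a DEAH box protein that is the least characterised of the class, had 63.6, 64.3 and 67.3 CPM (counts scaled to a common library size) with Akkermansia, against 122, 98.2 and 118 CPM with PBS. The Akkermansia libraries lay close together and far below the lowest PBS library. Its log2 fold change of -0.80 ± 0.09 (SE) had an adjusted p of 0.000117 by the edgeR quasi-likelihood test and was called in each of the 16 alternative analyses, including the 6 without 1 library (adjusted p up to 0.00187). By p-value it was number 63 of the 15138 genes tested, and 355 genes called lower had a larger fall.

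The promoter window of Dhx40, from 250 bases before to 50 bases after the annotated start, is shown because Dhx40 changed most and because a search of the windows for the E box letters CACGTG, which read the same on both strands, found it here. The window lies at chr11:86807611-86807910 on the minus strand of GRCm38.p6 in RefSeq, and capitals mark the match, 120 to 115 bases before the start.
Dhx40: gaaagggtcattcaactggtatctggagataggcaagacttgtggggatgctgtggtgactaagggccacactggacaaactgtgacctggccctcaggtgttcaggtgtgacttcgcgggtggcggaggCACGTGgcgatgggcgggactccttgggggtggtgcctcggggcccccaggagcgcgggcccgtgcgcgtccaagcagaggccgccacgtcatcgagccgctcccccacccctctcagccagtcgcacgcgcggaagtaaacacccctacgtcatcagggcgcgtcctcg
These letters occurred in 7 of the 45 helicase genes with a window (15.6%) and in 8.09% of all 27025 genes. By class, they were in 4 of 12 splicing windows and in 2 of 3 germ cell windows, those of the untested Ddx4 and Ddx25. Of the nucleolar class 1 of 16 windows held them, that of Dhx33. A match describes letters and not a bound site.

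Ddx39b, also called UAP56, which acts in spliceosome assembly and in mRNA export, had 474, 492 and 495 CPM with Akkermansia and 376, 387 and 413 CPM with PBS. All Akkermansia libraries were above all PBS libraries, with a log2 fold change of 0.31 ± 0.07 (SE, edgeR adjusted p = 0.00829). Dhx16, which remodels the spliceosome before the first chemical step (Prp2 in yeast), had 141, 146 and 149.7 CPM with Akkermansia and 117, 111 and 134 CPM with PBS, again without overlap (log2 fold change 0.27 ± 0.08, edgeR adjusted p = 0.0367). The call of Ddx39b was lost without Akkermansia 2 or 3 (edgeR adjusted p = 0.0504 and 0.0518) and that of Dhx16 without Akkermansia 1, 2 or 3, PBS 1 or PBS 2 (up to 0.137).

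The other helicases of the splicing class did not pass, those of assembly and those of later steps alike. Dhx15 (Prp43 in yeast), which takes spent spliceosomes apart and also works on ribosome precursors, had 335, 361 and 367 CPM with Akkermansia and 414, 401 and 407 CPM with PBS. The groups did not overlap, but the log2 fold change of -0.20 ± 0.07 (SE) had an edgeR adjusted p of 0.0584. Dhx38 and Dhx8 (Prp16 and Prp22 in yeast), which act around the second step and on mRNA release, had log2 fold changes of -0.11 ± 0.07 and 0.08 ± 0.07. Ddx23 and Ddx46 (Prp28 and Prp5 in yeast), which act in assembly, had 0.05 ± 0.07 and 0.10 ± 0.07. Ddx41, a spliceosome helicase also described as a DNA sensor, and Ddx20, the Gemin3 subunit of the SMN complex that assembles snRNPs, had 0.16 ± 0.08 and 0.16 ± 0.11. Values between -0.04 and -0.0014 were found for Ddx39, Ddx42 and Dhx35.

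G-patch proteins bind DEAH helicases and switch on their ATPase, and 18 of them were tested. Of these 2 rose and 2 fell (22.2%, beside 15.6% of all genes). Nkrf, a partner of DHX15 in human cells, fell, with 12.9, 13.7 and 16.7 CPM with Akkermansia and 24.5, 22.9 and 30.1 CPM with PBS (log2 fold change -0.84 ± 0.14, edgeR adjusted p = 0.00193). Tfip11, which brings Dhx15 to spent spliceosomes, had 72.7, 73.1 and 74.9 CPM with Akkermansia and 114, 86.7 and 119 CPM with PBS (-0.53 ± 0.10, edgeR adjusted p = 0.00572). Zgpat, a further DHX15 partner, was higher with 169, 164 and 168 CPM with Akkermansia and 108, 102 and 135 CPM with PBS (0.54 ± 0.10, edgeR adjusted p = 0.00309). These partners of a single helicase thus had changes of opposite sign. Without Akkermansia 2, 1 of the 18 was called higher.

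Among nucleolar helicases Dhx37 rose, Ddx52 and Ddx50 fell, and 13 of 16 did not pass. Dhx37 (Dhr1 in yeast), which releases the U3 small nucleolar RNA from the small subunit precursor, had 52.4, 55.0 and 51.9 CPM with Akkermansia and 37.6, 41.6 and 42.3 CPM with PBS. Its groups lay well apart (log2 fold change 0.39 ± 0.08, SE, edgeR adjusted p = 0.0079), and the call was kept whichever library was left out (adjusted p up to 0.0493). Ddx52 (Rok1 in yeast), which acts on the same precursor, had 58.6, 61.8 and 65.7 CPM with Akkermansia and 79.0, 77.7 and 74.1 CPM with PBS (-0.31 ± 0.075, edgeR adjusted p = 0.0145). These 2 small subunit factors therefore moved in opposite directions, each without overlap of the groups. Ddx50, a paralogue of Ddx21, had 116, 118 and 121 CPM with Akkermansia and 146, 147 and 132 CPM with PBS (-0.26 ± 0.07, edgeR adjusted p = 0.0244). Ddx52 was not called without Akkermansia 1, Akkermansia 2 or PBS 1 (adjusted p up to 0.0778), nor Ddx50 without Akkermansia 1, 2 or 3 or PBS 1 (up to 0.106).

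The other nucleolar members ranged in log2 fold change from -0.24 to 0.22. Ddx21, the most abundant, which links transcription of ribosomal DNA to rRNA processing, had 281, 292 and 305 CPM with Akkermansia and 327, 311 and 293 CPM with PBS, and the groups overlapped (-0.08 ± 0.07, edgeR adjusted p = 0.46). Ddx10 (Dbp4 in yeast) had the largest change that did not pass, -0.24 ± 0.09 (SE, edgeR adjusted p = 0.109). Ddx24 and Ddx31 (Mak5 and Dbp7 in yeast), of the large subunit, had -0.21 ± 0.09 and -0.21 ± 0.11, whereas Ddx55 and Ddx56 (Spb4 and Dbp9 in yeast), of the same subunit, had 0.22 ± 0.08 and 0.18 ± 0.09 (SE). Ddx24 was called lower without PBS 3 (adjusted p = 0.0217). Ddx18, Ddx27, Ddx47, Ddx49, Ddx51, Ddx54 and Dhx33 lay between -0.10 and 0.08.

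Set side by side, the nucleolar class had a median log2 fold change of -0.03 with 10 of 16 members below 0, and the splicing class a median of 0.05 with 7 of 15 below 0. The share called was 18.8% in the nucleolar and 20.0% in the splicing class, beside 15.6% of all genes. Summed levels were 275, 293 and 296 FPKM with Akkermansia and 299, 302 and 290 FPKM with PBS for the nucleolar class, and 1162, 1171 and 1225 FPKM with Akkermansia and 1178, 1159 and 1258 FPKM with PBS for the splicing class. In both classes the groups overlapped, and the medians were a small fraction of the range within each class, -0.31 to 0.39 and -0.80 to 0.31. The difference between the classes was not tested.

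Of 40 other ribosome biogenesis genes, which work beside the nucleolar helicases, 6 fell and 1 rose (17.5%, beside 15.6% of all genes), with a median log2 fold change of -0.07. By direction, 15% were lower and 2.5% higher, beside 8.28% and 7.32% of all genes, and the direction was not tested. Nop58, a core protein of box C/D small nucleolar RNPs, had 78.0, 81.3 and 82.3 CPM with Akkermansia and 134, 126 and 124 CPM with PBS (-0.67 ± 0.07, SE, edgeR adjusted p = 7.68e-05). Ncl, nucleolin, had 518, 539 and 534 CPM with Akkermansia and 791, 715 and 698 CPM with PBS (-0.47 ± 0.07, edgeR adjusted p = 0.00101). Npm1, nucleophosmin, had 389, 481 and 439 CPM with Akkermansia and 579, 607 and 552 CPM with PBS (-0.41 ± 0.08, edgeR adjusted p = 0.00582). In each of these 3 genes, named for their small p-values, the groups lay apart. Over the list they lay apart in 13 of 40 genes (32.5%), beside 34.9% of all genes.

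Of 15 genes of RNA polymerase I and its factors 5 fell and 1 rose (40.0%, beside 15.6% of all genes), with a median of 0.0043. Taf1d, a subunit of the promoter selectivity factor SL1, had 121, 134 and 131 CPM with Akkermansia and 199.5, 208 and 217 CPM with PBS (-0.69 ± 0.07, SE, edgeR adjusted p = 7.65e-05). Taf1c, a subunit of the same factor, had 53.4, 50.1 and 52.1 CPM with Akkermansia and 36.1, 34.3 and 39.3 CPM with PBS (0.51 ± 0.09, edgeR adjusted p = 0.00216). Twistnb, a polymerase I subunit now called Polr1f, had 39.8, 45.3 and 45.5 CPM with Akkermansia and 72.2, 65.3 and 69.2 CPM with PBS (-0.66 ± 0.08, edgeR adjusted p = 0.000322). The falls numbered 3 when Akkermansia 1, 2 or 3 or PBS 1 was left out.

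**Figure D2:**
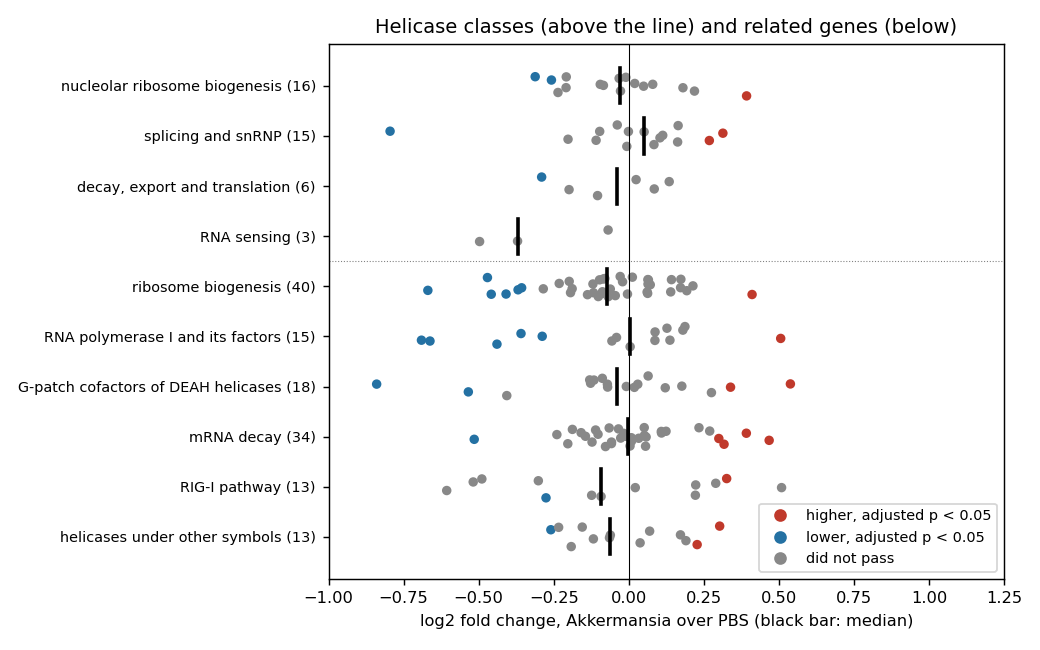
Log2 fold change (x axis, Akkermansia over PBS) of each tested gene in 4 helicase classes (above the dotted line) and 6 lists of related genes (below it), with the number tested in brackets and a black bar at the median. Class medians lie near 0 except for the 3 RNA-sensing genes at -0.37, of which none passed, and the falls of ribosome biogenesis and polymerase I genes reach -0.67 and -0.69.

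Of the 6 helicases of decay, export and translation, Dhx36 fell and 5 did not pass (16.7% called, beside 15.6% of all genes). Dhx36, which unwinds G-quadruplexes in RNA and DNA, had 91.0, 97.7 and 97.0 CPM with Akkermansia and 116, 122 and 111 CPM with PBS, without overlap (-0.29 ± 0.07, SE, edgeR adjusted p = 0.0145). The call was lost when any single Akkermansia library was left out (adjusted p up to 0.0792). Ddx6, which represses translation and promotes decapping in P-bodies, had 669.5, 641 and 681 CPM with Akkermansia and 653, 615 and 609 CPM with PBS, with overlap (0.08 ± 0.07, edgeR adjusted p = 0.441). Dhx34, of nonsense-mediated decay, and Dhx29, which helps ribosomes scan structured leaders, had 0.02 ± 0.09 and 0.13 ± 0.10 (SE). Ddx19a, of mRNA export, had 56.7, 58.0 and 61.1 CPM with Akkermansia and 67.5, 63.4 and 70.8 CPM with PBS. Its groups did not overlap, yet the largest change of the class that did not pass, -0.20 ± 0.08 (SE), had an edgeR adjusted p of 0.1. Ddx19b, its paralogue, had -0.10 ± 0.08, with overlap (edgeR adjusted p = 0.432).

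Of 34 other mRNA decay genes 4 rose and 1 fell (14.7%, beside 15.6% of all genes). Cnot7, a deadenylase of the CCR4-NOT complex, fell to 75.2 ± 2.81 CPM with Akkermansia, against 107 ± 1.88 CPM with PBS (SD, n = 3 each, edgeR adjusted p = 0.000391). Cnot3, a scaffold subunit of that complex, rose to 123 ± 3.83 CPM with Akkermansia, against 94.0 ± 5.25 CPM with PBS (SD, n = 3 each, edgeR adjusted p = 0.00286). Smg1, the kinase of nonsense-mediated decay, rose to 1293 ± 87.9 CPM with Akkermansia, against 935 ± 131 CPM with PBS (SD, n = 3 each, edgeR adjusted p = 0.00858), and lost its call without Akkermansia 3 (0.0518). The rises in this list numbered 2 without Akkermansia 2 and 1 without Akkermansia 3, and the falls 3 without PBS 3.

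The RNA-sensing helicases did not pass, and among the helicases tested they had the widest spread within the PBS group. Ddx58, which encodes the viral RNA sensor RIG-I, had 189, 209 and 233 CPM with Akkermansia and 207, 294 and 161 CPM with PBS. Dhx58, which encodes its regulator LGP2, had 27.6, 44.5 and 37.4 CPM with Akkermansia and 42.5, 71.4 and 27.8 CPM with PBS. Ddx60, an interferon-induced antiviral helicase, had 61.8, 87.9 and 82.5 CPM with Akkermansia and 104, 159 and 64.9 CPM with PBS. In all 3 genes PBS 2 was the highest of the 6 libraries, and PBS 3 was the lowest PBS library. The PBS 2 value was 1.82, 2.57 and 2.45 times the PBS 3 value for Ddx58, Dhx58 and Ddx60, whereas the Akkermansia libraries spanned 1.23-fold, 1.61-fold and 1.42-fold.

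The log2 fold changes were -0.07 ± 0.24 for Ddx58, -0.37 ± 0.42 for Dhx58 and -0.50 ± 0.39 for Ddx60 (SE), with edgeR adjusted p of 0.888, 0.635 and 0.477. Neither edgeR at an unadjusted p of 0.05 nor DESeq2 nor limma-voom called any of the 3. The errors are several times those of the splicing helicases, and the median SD of log2 CPM within the PBS group was 0.64 for the sensing class, 0.11 for the splicing class and 0.17 for all tested genes. Without PBS 2 the class median was 0.05 in place of -0.37, and without PBS 3 it was -0.64.

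The other genes of the RIG-I pathway had the same order of PBS libraries in many cases, a pattern singled out after the values were seen. PBS 2 was highest, PBS 1 intermediate and PBS 3 lowest in 9 of 13 tested pathway genes (69.2%), in 11 of 50 helicase genes (22%) and in 18.6% of all genes. Ifih1, the related sensor MDA5, had 59.7, 78.1 and 68.4 CPM with Akkermansia and 92.5, 155 and 48.4 CPM with PBS. Irf7, an interferon regulatory factor, had 112, 158 and 148 CPM with Akkermansia and 207, 331 and 98.7 CPM with PBS. Both follow the 3 helicases in their PBS order. Of these 13 genes Ikbke, a kinase upstream of IRF3, rose by 0.33 ± 0.08 on the log2 scale (edgeR adjusted p = 0.0141). Zc3hav1, an antiviral zinc finger protein that binds RNA, fell by 0.28 (edgeR adjusted p = 0.0153). These calls were 15.4% of the list, beside 15.6% of all genes. Ikbke was not called without Akkermansia 1, 2 or 3 or PBS 1, nor Zc3hav1 without Akkermansia 1, 2 or 3 (adjusted p up to 0.0664 and 0.0851). Without PBS 2, 3 pathway genes were higher, and without PBS 3, 2 were higher and 2 lower.

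**Figure D3:**
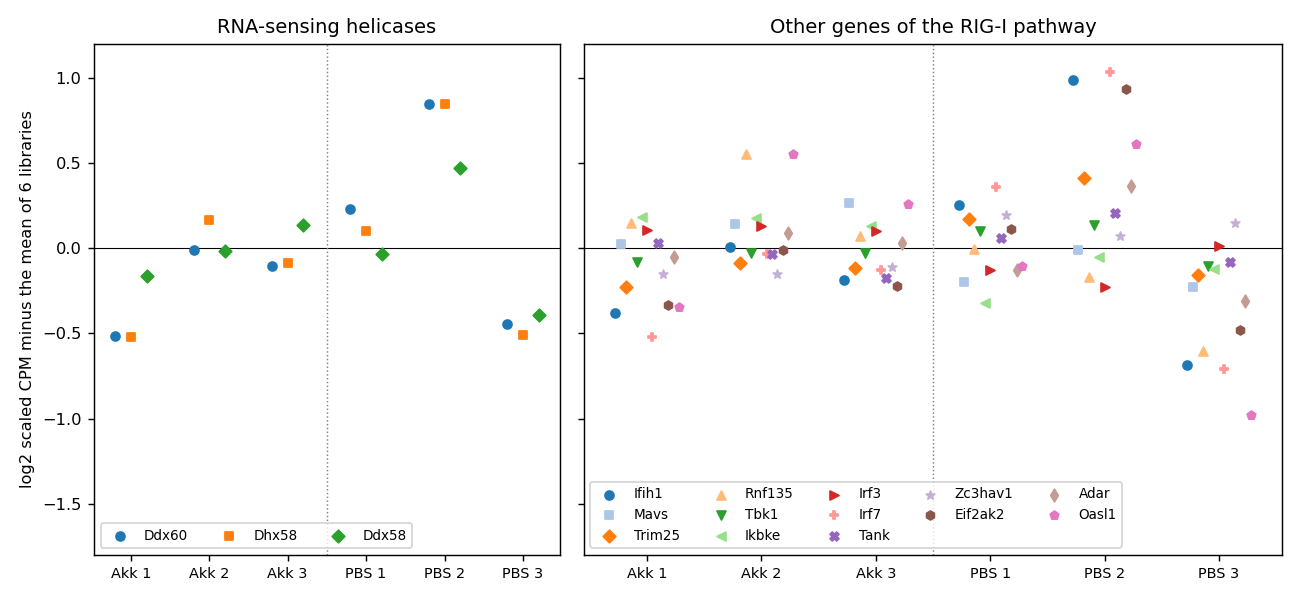
Log2 scaled CPM of each gene in each library, minus that gene's mean over the 6 libraries (y axis), for the 3 RNA-sensing helicases (left) and 13 other genes of the RIG-I pathway (right), with Akkermansia libraries left of the dotted line and PBS libraries right of it. In PBS 2 all 3 helicases stand above their mean and in PBS 3 below it, as do Ifih1, Irf7 and Eif2ak2.

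The promoter windows of Ddx58 and Ddx60 are shown because these genes had the same order of PBS libraries, though their order with Akkermansia differed. A further reason is that both windows held the letters GAAA, any 2 bases and GAAA (either strand), the repeat of the interferon response element. The Ddx58 window lies at chr4:40239776-40240075 on the minus strand and that of Ddx60 at chr8:61927837-61928136 on the plus strand, both of GRCm38.p6 in RefSeq. Capitals mark the matches, 2 to 11 bases after the start in Ddx58, and 53 to 44 and 19 to 10 bases before the start in Ddx60.
Ddx58: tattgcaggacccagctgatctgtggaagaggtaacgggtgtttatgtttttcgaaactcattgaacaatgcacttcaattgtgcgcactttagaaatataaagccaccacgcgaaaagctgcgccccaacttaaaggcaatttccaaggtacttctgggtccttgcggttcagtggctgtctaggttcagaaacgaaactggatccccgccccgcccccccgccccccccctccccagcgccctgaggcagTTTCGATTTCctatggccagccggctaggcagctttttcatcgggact
Ddx60: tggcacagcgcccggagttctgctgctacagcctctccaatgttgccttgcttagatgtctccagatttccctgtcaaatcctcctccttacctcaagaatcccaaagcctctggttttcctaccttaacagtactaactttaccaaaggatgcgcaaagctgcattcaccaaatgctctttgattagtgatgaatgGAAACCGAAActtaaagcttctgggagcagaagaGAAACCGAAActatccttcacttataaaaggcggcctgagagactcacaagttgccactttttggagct
Among helicase genes the letters occurred in 1 other window, that of the nucleolar Ddx49, so in 3 of 45 (6.67%), beside 3.99% of all 27025 genes. The promoter of Dhx58 was not searched.

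Of the 6 members with other or unclear roles, Dhx9 and Ddx59 fell (33.3% called, beside 15.6% of all genes). The share called lower was also 33.3%, beside 8.28% of all genes, and the difference was not tested. Dhx9, nuclear RNA helicase A, which resolves RNA duplexes and RNA-DNA hybrids, had 338, 347 and 349.5 CPM with Akkermansia and 427, 396 and 428 CPM with PBS (-0.27 ± 0.07, SE, edgeR adjusted p = 0.015). The groups lay apart, and the call was lost when any single Akkermansia library was left out (adjusted p up to 0.0735). Ddx59 had 8.28, 8.01 and 9.67 CPM with Akkermansia and 11.1, 13.1 and 12.5 CPM with PBS (-0.49 ± 0.15, edgeR adjusted p = 0.0459). It was the weakest of the 9 calls, since it was lost in each of the 6 fits without 1 library (adjusted p up to 0.167) and with DESeq2 (0.0565). Ddx11, a DNA helicase of sister chromatid cohesion, had 47.2, 44.4 and 43.7 CPM with Akkermansia and 33.4, 42.0 and 35.9 CPM with PBS, without passing (0.28 ± 0.10, edgeR adjusted p = 0.0713), and was called higher without PBS 2 (0.0139). Ddx1, of the tRNA ligase complex, Dhx32 and Dhx57 lay between -0.07 and 0.09.

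The mitochondrial helicases Dhx30 and Ddx28, which act in assembly of the mitochondrial ribosome, had log2 fold changes of 0.16 ± 0.07 and 0.15 ± 0.19 (SE, edgeR adjusted p = 0.16 and 0.641). Ddx43, known from germ cells, was low with 9.61, 8.74 and 7.09 CPM with Akkermansia and 7.49, 5.38 and 6.44 CPM with PBS (0.40 ± 0.19, edgeR adjusted p = 0.19). Dhx58os, which lies antisense to Dhx58, had 18, 14 and 12 counts with Akkermansia and 14, 23 and 9 counts with PBS. Its PBS order was that of Dhx58, and as the sources used here name no strand setting, reads of the 2 genes cannot be told apart.

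**Figure D4:**
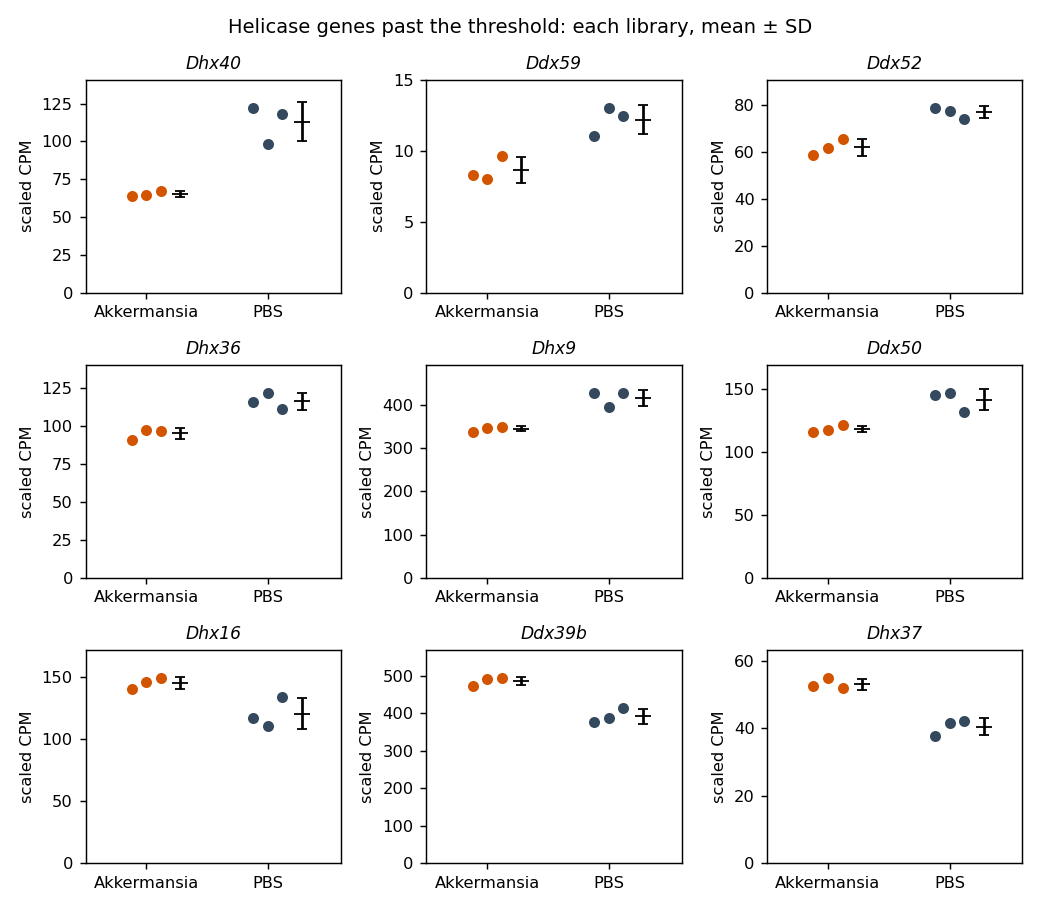
Scaled CPM (y axis, from 0) of the 9 helicase genes past the threshold, with 1 point per library and the mean ± SD of 3 libraries beside each group. The Akkermansia libraries lie below all PBS libraries in the 6 genes from Dhx40 to Ddx50 and above all of them in Dhx16, Ddx39b and Dhx37, and in fold terms Dhx40 differs most, at 0.576 of its PBS level.

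Ratios within a library compare close paralogues without regard to library scaling. The ratio of Ddx39b to Ddx39, the gene of its paralogue DDX39A, was 5.66, 5.89 and 6.10 in FPKM with Akkermansia and 4.79, 4.23 and 4.86 with PBS. The ratio of Ddx17 to Ddx5 was 0.123, 0.122 and 0.120 with Akkermansia and 0.0971, 0.116 and 0.104 with PBS, although neither gene passed the test (0.11 ± 0.07 for Ddx17 and -0.10 ± 0.07 for Ddx5, SE). The groups lay apart in both ratios, with the Akkermansia libraries higher. The ratio of Ddx50 to Ddx21, which are neighbours on their chromosome, was 0.212, 0.206 and 0.203 with Akkermansia and 0.227, 0.242 and 0.231 with PBS. The ratio of Ddx19a to Ddx19b, neighbouring genes for factors of mRNA export at the nuclear pore, was 2.02, 2.09 and 2.11 with Akkermansia and 2.27, 2.27 and 2.12 with PBS. In these 2 ratios the Akkermansia libraries were the lower ones, also without overlap. Ddx39b, Ddx17, Ddx50 and Ddx19a each had groups apart in CPM on their own, as had 34.9% of all genes. The ratios are therefore not separate findings, and no share was computed for ratios of other gene pairs. Each of the 4 ratios had a two-sided exact permutation p of 0.1 (0.1 after Benjamini-Hochberg adjustment over the 4), the smallest that 3 against 3 libraries allow, so none can pass 0.05. Reads of Ddx19a and Ddx19b, which are near-identical, could have been divided by the counting.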

How the data were processed

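Libraries were made by poly(A) selection, per the labels' protocols. The authors deposited a raw count for every gene and library, and beside it an FPKM value with 2 decimals. Reads were placed on GRCm39, per the submitters' processing notes. The sources used here name no aligner, counter, annotation or strand setting.

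Counts were tested with edgeR 4.0.16 in R 4.3.3, after filterByExpr (minimum count 10, minimum total 15) and TMM scaling, by the robust quasi-likelihood F test. The test was two-sided, used all 6 libraries and had no covariate. P-values were adjusted by Benjamini-Hochberg over the 15138 genes tested, with a threshold of 0.05. CPM are counts scaled by library total and TMM factor. Alternatives used DESeq2 1.42.0, limma-voom (limma 3.58.1) and limma-trend on log2 FPKM with a pseudocount of 1 or 0.1, plus other scalings and filters and each library left out. The fit was also run on simulated data with 200 changed genes, fewer than were called here, and no conclusion is drawn from that run. Replicates differed by 4.25 to 17.8 times the sampling variance, so each library counted once.

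Members, classes and lists were chosen with earlier results of these data known. Genes named by rule were the members past the threshold, the most abundant member and the largest change that did not pass in each class, 4 paralogue pairs, and up to 3 called genes in each list of related genes. Any other was chosen after its values were seen. Promoter windows are from RefSeq on GRCm38.p6, an older build than that of the counts, and 45 of the 52 members had one. Protein sequences were not used here.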

Additional observations from a re-analysis of the deposited data

How the results depend on the processing

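Dhx40 was called lower in all 16 alternatives and Dhx37 higher in 15, the exception being the test against a fold of 1.2. With that stricter test 281 genes were higher and 370 lower over all genes. Of the helicases 0 were higher and 1 lower, with 0 and 0 nucleolar, 0 splicing higher, 0 decay lower and 0 lower among other roles. Of the related lists, 1 G-patch gene was higher and 1 lower, 0 and 0 helicases under other symbols, 0 mRNA decay genes higher, 0 and 2 ribosome biogenesis genes, 0 and 0 RIG-I pathway genes, and 2 polymerase I genes lower. With log2 FPKM, at either pseudocount, 3 helicases were lower, with 1 nucleolar lower, 1 splicing higher, 0 decay lower, 1 lower among other roles and 0 helicases under other symbols higher. Without a filter on low counts, 1 member of other roles was higher and 1 lower, and 2 RIG-I pathway genes were higher and 2 lower. DESeq2 called 1 member of other roles lower, and library totals without TMM 2 RIG-I pathway genes higher. The median log2 fold change over all genes was -0.0013 with library totals and 0.0037 and 0.0065 with log2 FPKM and pseudocounts of 1 and 0.1. With Dhx40 left out of the splicing class, chosen after seeing the data, 0 of its members were lower.

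Leaving out each library in turn gave 519 to 1287 genes higher and 623 to 1413 lower over all genes, 1 to 3 helicases higher and 1 to 6 lower, 0 to 3 nucleolar lower, 0 to 2 splicing higher, 0 to 1 decay lower, and 0 to 1 of other roles in each direction. Among related lists it gave 1 to 2 G-patch genes higher, 0 to 3 RIG-I pathway genes higher and 0 to 2 lower, 3 to 5 polymerase I genes lower, 0 to 2 helicases under other symbols higher and 0 to 1 lower, 1 to 4 mRNA decay genes higher and 1 to 3 lower, and 0 to 1 ribosome biogenesis genes higher and 4 to 6 lower. Medians ranged from -0.64 to 0.0542 for RNA sensing, -0.0145 to -0.0050 for all genes, -0.0161 to 0.0081 for all helicases, -0.10 to 0.0039 for decay, -0.0709 to 0.0070 for other roles, 0.29 to 0.51 for germ cell, 0.12 to 0.23 for mitochondrial, -0.0639 to -0.0097 for nucleolar and 0.0174 to 0.0758 for splicing. Ddx58 changed sign without Akkermansia 1 (0.0066) and without PBS 2 (0.1935), within a range of -0.2507 to 0.1935, and Ddx39 without PBS 2 (0.0174). Over all alternatives 12 of 49 helicases, these and Dhx58 among them, had log2 fold changes of both signs, and 0 of the 12 were called by edgeR with all 6 libraries. The cause was not tested.

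Libraries of equal number in both groups share that number and the CD marker named in their free-text description. Whether they share more is not known from the sources used here. Their deviations from the group means correlated by 0.0846, 0.0774 and 0.0303, and each library correlated best with its own number. A fit with the replicate number as a block called 1205 genes higher and 1333 lower, with 3 helicases higher and 5 lower, 1 of them of other roles; Ddx59 was the call not made (adjusted p = 0.0514). With 3 libraries a group, low genes are imprecise: 3 counts correspond to 0.181 to 0.2 CPM.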

Other observations

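Several RNA helicases carry other gene symbols, and 13 of them were tested, of which 2 rose and 1 fell (23.1%, beside 15.6% of all genes). Eif4a3, the helicase of the exon junction complex, had 109, 106 and 111 CPM with Akkermansia and 133, 124 and 134 CPM with PBS (log2 fold change -0.26 ± 0.07, SE, edgeR adjusted p = 0.0205). Upf1, the helicase of nonsense-mediated decay, had 213, 229 and 218 CPM with Akkermansia and 179.5, 186 and 198 CPM with PBS (0.23 ± 0.07, edgeR adjusted p = 0.0401). Skiv2l, which feeds mRNAs to the cytoplasmic exosome, had 195, 198 and 194 CPM with Akkermansia and 162, 137 and 177 CPM with PBS (0.30 ± 0.09, edgeR adjusted p = 0.0308). In each of the 3 genes, named because they were called, the groups lay apart. Over the list they lay apart in 8 of 13 genes (61.5%), beside 34.9% of all genes. All 3 calls were lost when Akkermansia 1, 2 or 3 or PBS 1 was left out, and those of Skiv2l and Upf1 also without PBS 2 (adjusted p up to 0.11 for Eif4a3, 0.111 for Skiv2l and 0.18 for Upf1).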
